A study of Mus musculus with 4 samples.

Results

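Cadherins and protocadherins are calcium-dependent adhesion proteins, and 57 genes of this family were examined among 18920 genes measured in sorted cells of the embryonic mouse retina. The members are the genes whose array feature (probe set) was annotated with a single symbol beginning with Cdh and a digit, or with Pcdh. There were 61 such features, and the 4 genes with more than 1 feature were represented by the one with the highest mean over the arrays. They comprised 5 type I and 13 type II classical cadherins, 5 atypical cadherins, 22 clustered protocadherins and 12 non-clustered protocadherins. All 22 clustered genes belonged to the beta cluster, and the 36 alpha and gamma genes of the RefSeq gene table were not analysed here. The cells came from retinas of BAC-Crx-EGFP mice on a 129Sv/Ev background at E17.5, sorted into EGFP-positive and EGFP-negative cells with 2 samples and 2 arrays for each. In these mice a bacterial artificial chromosome places enhanced green fluorescent protein under the control of Crx, a transcription factor gene of photoreceptors and their precursors, and both fractions carry the transgene. The positive fraction was defined by reporter fluorescence, and the negative fraction holds all other sorted cells. Whether the 2 replicates of a fraction are separate animals, litters or sorts is not stated in the labels. The p-values therefore reflect the spread among these 4 arrays alone, and that spread may be technical.

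Classical cadherins bind the same or related cadherins on neighbouring cells through their outer domains and are tied to actin by catenins at their tails. Type I members such as N-cadherin hold epithelia together, and type II members are expressed in overlapping subsets of neurons. Clustered protocadherins are encoded in a dense array of similar genes, each with a promoter of its own, and neurons express different combinations that serve in recognition between cells. Non-clustered protocadherins include the delta group, whose tails can recruit the actin-regulating WAVE complex, and Pcdh15, which acts with Cdh23 in the tip links of inner ear hair cells.

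The arrays separated the fractions as labelled, and replicates differed in markers of other retinal cells. The intensity of Crx was 3628.7 and 4758.8 on the positive arrays and 292.2 and 370.1 on the negative arrays. On the positive arrays all 8 photoreceptor precursor markers lay above the negative arrays without overlap, against 22.3% of all features. The reporter that defined the sort was driven by Crx sequences. The summed intensity of 8 progenitor markers was 19348 and 15462 on positive arrays 1 and 2 and 28638 and 30265 on the negative arrays. The sum of 11 ganglion cell markers was 5012 and 9124 on the positive arrays and 3740 and 8636 on the negative arrays. Of these 11 markers, 10 were higher in replicate 2 of both fractions, against 29.0% of all features. Of 11 amacrine and horizontal cell markers, all had a higher mean in the positive fraction (median log2 difference 0.43). Their sums were 7145 and 9154 against 5159 and 4930. Limma called 2 of them higher, Tfap2a and Tfap2b (adjusted p = 0.0429 and 0.0399), against 0.820% of all features. Lists for astrocytes, pigment epithelium, microglia and lens had medians of 0.01, 0.12, -0.12 and 0.07, with no gene called by limma.

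None of the 57 genes passed the limma test at an adjusted p under 0.05, against 0.820% of all 22431 features called higher with EGFP and 0.143% called lower. The counts of calls, among members and over all features, changed in some fits with 1 array left out and with a replicate term. At an unadjusted p under 0.05, 21 members were higher with EGFP and 5 were higher without it, where the background over all features was 9.34% and 9.83%, or 19.2% in either direction. The arrays of the fractions did not overlap for 28 members that were higher in the positive fraction and for 10 that were higher in the negative one, against 22.3% and 25.3% of all features. The lowest adjusted p was 0.0575, for Pcdhb18. An exact permutation test of 2 against 2 arrays cannot go below p = 0.333 and was not used for single genes. Log2 differences are EGFP-positive minus EGFP-negative, with limma's moderated standard error (SE).

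The classes are described by their counts and medians, and no test was made between them. The 22 clustered protocadherins had a median log2 difference of 0.42, and 21 of them were above 0. The 18 classical cadherins had a median of -0.05, with 7 above 0 and 11 below. The 12 non-clustered protocadherins had a median of 0.15, with 9 above 0, and spread from -0.95 for Pcdh18 to 2.15 for Pcdh15. Over all 18920 genes the median was -0.01 and 47.4% were above 0 (47.8% of features). Between single arrays, the median of the clustered class ranged from 0.32, for positive replicate 1 minus negative replicate 2, to 0.49, for positive replicate 2 minus negative replicate 2. The corresponding medians of the classical cadherins ran from -0.10 to -0.03. Because the sorted fractions are mixtures, more cells of a type and more RNA of a gene per cell cannot be told apart in any of these values.

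**Figure D1:**
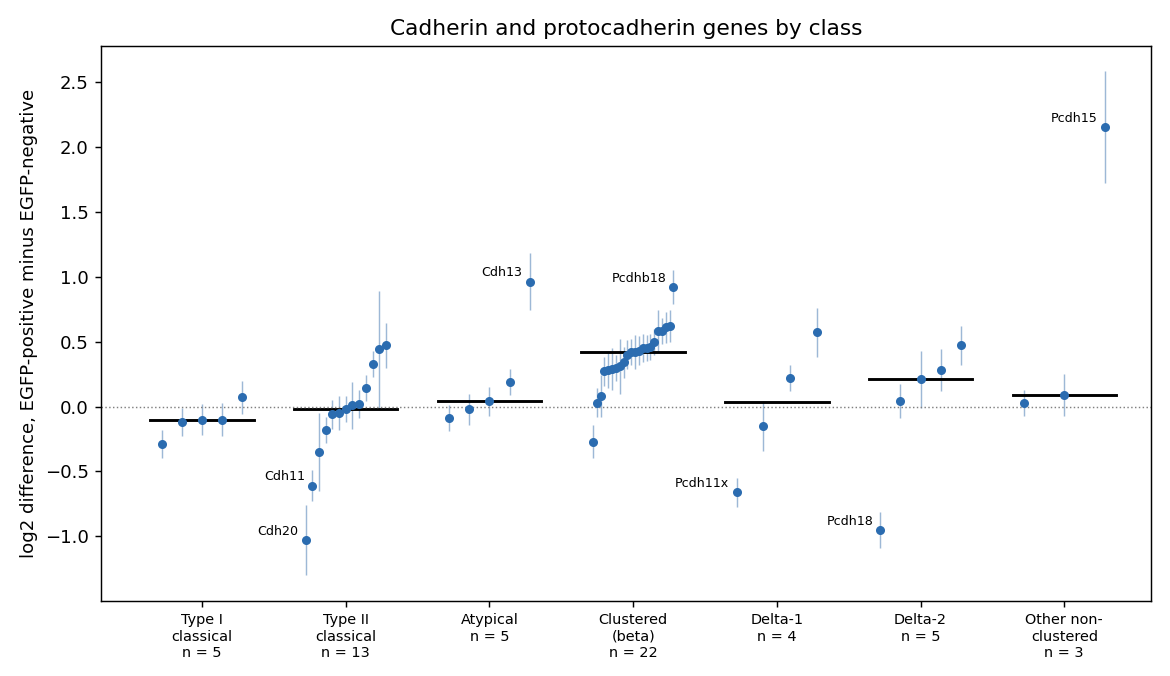
Log2 difference in intensity, EGFP-positive minus EGFP-negative, for 57 cadherin and protocadherin genes by class. Each point is a gene with its SE (n = 2 arrays per fraction), and black lines are class medians. Genes with large differences are named, with a higher cut-off for the beta protocadherins than for the other classes. The clustered class lies above 0 except for Pcdhb1, while the classical cadherins lie on both sides of 0.

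Of the 22 beta protocadherins, 21 had a higher mean in EGFP-positive cells, and none of these differences passed the adjusted threshold. The positive arrays lay above both negative arrays for 18 of 22 genes (background over all features 22.3%), the arrays overlapped for Pcdhb2, Pcdhb5 and Pcdhb9, and Pcdhb1 was the 1 gene with both positive arrays below the negative ones. At an unadjusted p under 0.05, 15 of the 22 were higher in the positive fraction and none was lower (background 9.34% and 9.83%). No gene of the cluster was called over all features by the limma fit used here, which has no replicate term. The median log2 intensity over the 22 genes was 7.32 and 7.42 on the positive arrays and 6.98 and 7.12 on the negative arrays. These genes are close paralogs and their probes can share sequence, so their values may not be independent, which was not tested. The 11 amacrine and horizontal cell markers also had higher means with EGFP, as given above, and their part in the values of the beta genes was not tested.

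Pcdhb18 had the largest difference of the cluster. Its intensity was 292.1 and 322.7 on the positive arrays and 148.3 and 176.8 on the negative arrays, and both positive arrays were above both negative ones. The log2 difference was 0.92 ± 0.13 (SE, n = 2 per fraction, limma adjusted p = 0.0575), or 1.90-fold. With 1 array left out it ranged from 0.80 without negative replicate 1 to 1.05 without negative replicate 2. When limma was run with a trend and robust estimation the adjusted p was 0.0468. Pcdhb16, the beta gene with the highest mean intensity, read 392.0 and 364.9 on the positive arrays and 251.1 and 256.7 on the negative arrays. Its 2 values within each fraction lay close together, and the log2 difference was 0.58 ± 0.10 (adjusted p = 0.0805). Pcdhb21 read 151.0 and 167.9 against 108.6 and 98.5, a log2 difference of 0.62 ± 0.12 (adjusted p = 0.0850). Pcdhb22 read 211.9 and 252.6 against 154.1 and 149.6 (log2 difference 0.61 ± 0.12, adjusted p = 0.0927). Its difference ranged from 0.48 without positive replicate 2 to 0.73 without positive replicate 1.

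The difference was uneven along the cluster, in which the genes are numbered in the order of their loci. The 8 genes from Pcdhb15 to Pcdhb22 all had positive arrays above the negative ones, with log2 differences from 0.40, for Pcdhb17, to 0.92 and a median of 0.54. Among the 14 genes from Pcdhb1 to Pcdhb14 positive arrays lay above the negative ones for 10 (background over all features 22.3%), with a median of 0.30. This division was chosen after the values were seen and was not tested. The 8 genes also had higher median log2 intensities, of 7.79 and 7.90 on the positive arrays and 7.30 and 7.33 on the negative arrays. For the 14 genes these medians were 7.05 and 7.16 against 6.79 and 6.87. The part of signal level in the uneven differences was not tested. Pcdhb1, the first gene, read 110.8 and 93.1 on the positive arrays and 115.6 and 129.4 on the negative arrays, a log2 difference of -0.27 ± 0.13 (adjusted p = 0.369). Pcdhb2 read 151.0 and 174.7 against 136.2 and 173.9, and Pcdhb5 read 110.6 and 120.9 against 107.3 and 119.4, so that for both genes the positive and negative values were interleaved. Of the 22 beta genes, 3 had mean intensities below the lower quartile of all features. Pcdhb1, Pcdhb2, Pcdhb5 and Pcdhb9 were singled out after their values were seen.

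**Figure D2:**
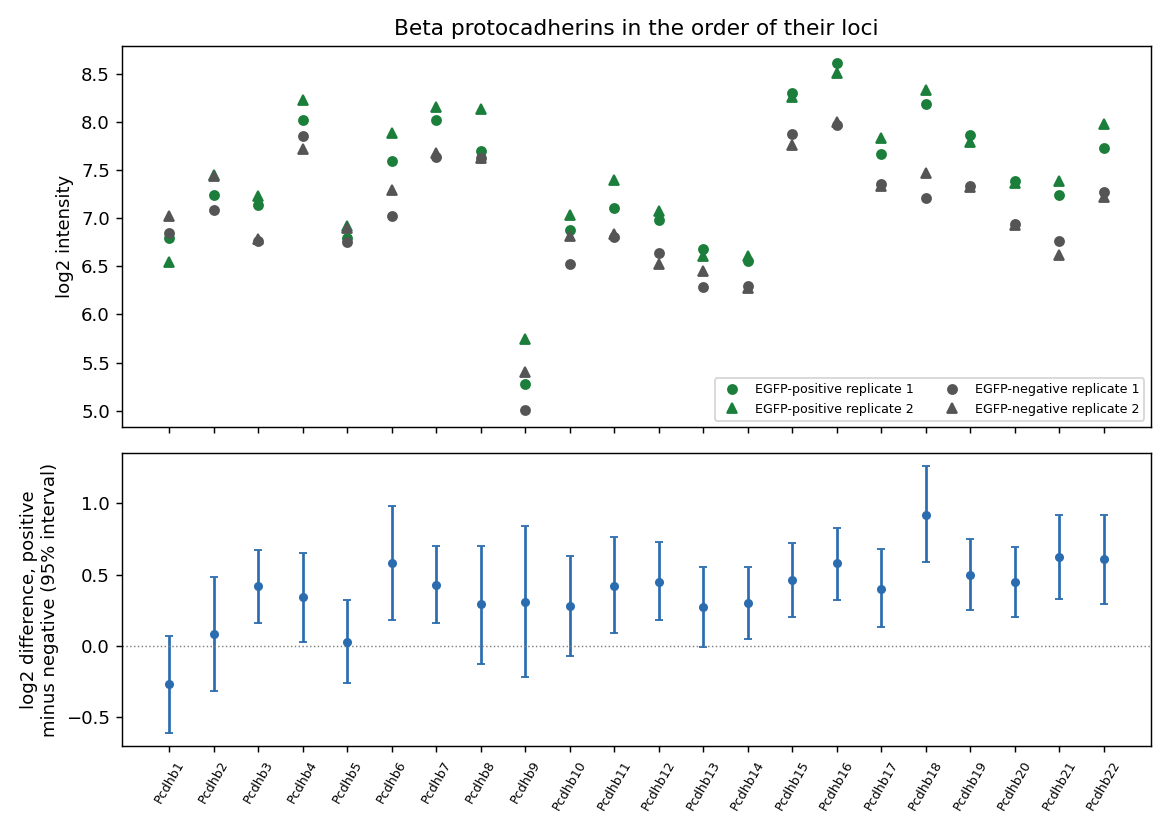
Upper panel, log2 intensity of the 22 beta protocadherins on each of the 4 arrays, in the order of their loci, and lower panel, the log2 difference with its 95% interval from limma. Green points (positive arrays) lie above grey points (negative arrays) for 18 genes, and the lower panel runs from -0.27 for Pcdhb1 to 0.92 for Pcdhb18. Levels of different genes come from different probes and are not compared.

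Genes whose products act at the clustered loci were described from a list of 13, of which none was called by limma. An unadjusted p under 0.05 was reached by 1 gene higher and 3 lower with EGFP (background over all features 9.34% and 9.83%). The median log2 difference was -0.09. Ctcf, the insulator factor that joins these promoters to their enhancers, read 2412.4 and 2105.7 on the positive arrays and 2205.1 and 2023.9 on the negative arrays, so that the fractions overlapped (log2 difference 0.09 ± 0.12). Smchd1, a chromatin protein that represses the clusters, read 1163.3 and 1191.4 against 1585.8 and 1665.4, with both negative arrays higher (-0.47 ± 0.10, adjusted p = 0.0993). Rest, a repressor of neuronal genes, read 585.6 and 380.8 against 1085.4 and 952.8 (-1.11 ± 0.22, adjusted p = 0.0904), and it was the 1 gene of the list called without positive replicate 1 (-1.42, adjusted p = 0.0112). Whether the levels of these regulators bear on the beta genes was not tested.

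Pcdh15 had the largest difference of the family. It encodes the protocadherin of hair cell tip links, mutated in a form of Usher syndrome with deafness and retinal degeneration, and its product is also found at photoreceptors. The feature read 425.7 and 1064.6 on positive arrays 1 and 2 and 173.1 and 132.9 on the negative arrays. Both positive arrays lay above the negative arrays, and they differed from each other by 1.32 on the log2 scale. The log2 difference was 2.15 ± 0.43 (95% interval 1.05 to 3.25, limma adjusted p = 0.0911), or 4.44-fold. With 1 array left out it ranged from 1.49 without positive replicate 2 to 2.81 without positive replicate 1. The 8 photoreceptor precursor markers were higher in replicate 2 by a median of 0.36 with EGFP and 0.14 without it, and their sums were 21582 and 25752 against 3805 and 3797. The single markers went both ways on the positive arrays, from -0.50 for Rbp3 and -0.23 for Pdc to 1.79 for Thrb, a nuclear receptor gene of cones. The part of photoreceptor content in the values of Pcdh15 was not tested.

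The feature of Pcdh15 with the lower mean did not show this difference. It read 183.7 and 209.6 on the positive arrays and 203.6 and 193.9 on the negative arrays, a log2 difference of -0.02 ± 0.11. The annotation ties it to 3 transcript accessions, none of them from RefSeq. The feature that represents the gene is tied to 20, 12 of them from RefSeq. On the negative arrays the representing feature read 173.1 and 132.9, below the other feature. Its higher mean, by which it was kept, came from the positive arrays alone. With the values of both features averaged, the log2 difference of Pcdh15 was 1.07 (adjusted p = 0.128). The other genes with 2 features showed the same direction in both, with log2 differences of 0.57 and 0.57 for Pcdh9, 0.14 and 0.34 for Cdh18, and -0.06 and -0.08 for Cdh24.

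Cdh23, the tip link partner of Pcdh15, showed no difference at this precision. It read 124.9 and 120.6 on the positive arrays and 126.5 and 112.1 on the negative arrays (log2 difference 0.04 ± 0.11, 95% interval -0.24 to 0.33). Of 16 listed partners of the pair in the Usher protein network and the hair cell transduction complex, 10 were measured and none was called by limma. An unadjusted p under 0.05 was reached by 1 higher and 2 lower with EGFP (background over all features 9.34% and 9.83%). Myo7a, a motor protein of Usher syndrome, read 456.0 and 332.6 against 286.6 and 252.5 (0.53 ± 0.18, adjusted p = 0.203, or 0.31 without positive replicate 1). Adgrv1, a giant adhesion receptor, read 1527.7 and 1031.4 against 2508.9 and 2042.4, with both negative arrays higher (-0.85 ± 0.22, adjusted p = 0.133, from -0.57 without positive replicate 2, adjusted p = 0.263, to -1.13 without positive replicate 1, adjusted p = 0.0257).

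The promoter windows of 3 genes are shown because they had the largest differences in either direction among members with a window in the RefSeq table used here (assembly GRCm38.p6), which held one for 22 of the 57 genes. Each runs from 250 bases before to 50 after the gene's start. Capitals mark matches on either strand to TAATT, a core bound by many homeodomain factors, and to TATAAA, the TATA box. Overlapping matches were allowed, and the motifs were chosen with the sequences in view.
Pcdh15, chr10:73821617-73821916 (+ strand): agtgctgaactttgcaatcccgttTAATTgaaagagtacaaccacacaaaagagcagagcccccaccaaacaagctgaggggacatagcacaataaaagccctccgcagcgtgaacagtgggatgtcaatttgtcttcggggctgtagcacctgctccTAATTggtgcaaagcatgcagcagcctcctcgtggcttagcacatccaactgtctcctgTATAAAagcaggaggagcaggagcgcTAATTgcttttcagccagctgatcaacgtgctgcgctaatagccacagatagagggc
Pcdh18, chr3:49757267-49757566 (- strand): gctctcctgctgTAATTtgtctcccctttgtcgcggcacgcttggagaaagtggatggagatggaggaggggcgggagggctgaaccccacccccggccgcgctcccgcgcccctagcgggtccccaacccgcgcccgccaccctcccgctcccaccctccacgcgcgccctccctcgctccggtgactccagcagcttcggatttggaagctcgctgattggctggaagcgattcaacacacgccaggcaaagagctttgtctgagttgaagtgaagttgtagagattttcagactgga
Cdh20, chr1:104768270-104768569 (+ strand): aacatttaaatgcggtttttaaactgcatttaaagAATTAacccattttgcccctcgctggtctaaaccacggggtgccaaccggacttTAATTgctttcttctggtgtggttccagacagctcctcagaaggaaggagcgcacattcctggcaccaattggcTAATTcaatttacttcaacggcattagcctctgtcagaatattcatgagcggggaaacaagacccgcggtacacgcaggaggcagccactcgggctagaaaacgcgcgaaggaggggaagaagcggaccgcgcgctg

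TAATCC, the core bound by Crx and Otx2, occurred in none of the 3 windows on either strand, against 7.06% of all 32851 windows in the table, and says only that these letters are not in these 300 bases. Among the 22 members with a window it occurred in 2, Cdh26 and Cdh7. TAATT occurred 3 times in the window of Pcdh15, 3 times in that of Cdh20 and 1 time in that of Pcdh18, and it was held by 27.0% of all windows and by 8 of the 22 members. TATAAA occurred in the window of Pcdh15 at position -33 from the start, and was held by 13.6% of all windows and by 2 of the 22 members, the other being Pcdh8. Matches are descriptions of sequence and were not tied to binding.

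A pair of delta protocadherins and a pair of type II cadherins gave the largest differences toward EGFP-negative cells. Pcdh18, a delta-2 protocadherin, read 387.3 and 309.6 on the positive arrays and 688.4 and 651.2 on the negative arrays. Both negative arrays were well above the positive ones, and the log2 difference was -0.95 ± 0.14 (SE, n = 2 per fraction, limma adjusted p = 0.0627), or 1.93-fold toward the negative fraction. Pcdh11x, an X-linked delta-1 protocadherin, read 192.9 and 172.5 against 297.6 and 277.7 (-0.66 ± 0.11, adjusted p = 0.0785). With 1 array left out, Pcdh18 ranged from -0.79 without positive replicate 2 to -1.11 without positive replicate 1. Pcdh11x ranged from -0.58 to -0.74 over the same fits.

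Cdh20, a type II cadherin, read 826.6 and 492.8 on the positive arrays and 1472.6 and 1152.6 on the negative arrays. The 4 arrays did not overlap between fractions, and the lower value of each fraction was that of replicate 2. The log2 difference was -1.03 ± 0.27 (adjusted p = 0.138), or 2.04-fold toward the negative fraction, and it was -1.40 without positive replicate 1 (adjusted p = 0.0183) and -0.66 without positive replicate 2. Cdh11, a type II cadherin known from mesenchyme and from neural progenitors, read 1630.5 and 1683.3 against 2332.7 and 2755.7. The positive values lay close together below both negative values (-0.61 ± 0.12, adjusted p = 0.0893). The 8 progenitor markers had a median log2 difference of -0.82. Of these 8, 6 were lower in positive than in negative arrays without overlap, against 25.3% of all features. The 11 markers of pericytes and mesenchyme had a median of -0.05 and sums of 1806 and 1808 on the positive arrays and 1941 and 1771 on the negative arrays. The part of either cell content in the values of Cdh20, Cdh11, Pcdh18 and Pcdh11x was not tested.

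**Figure D3:**
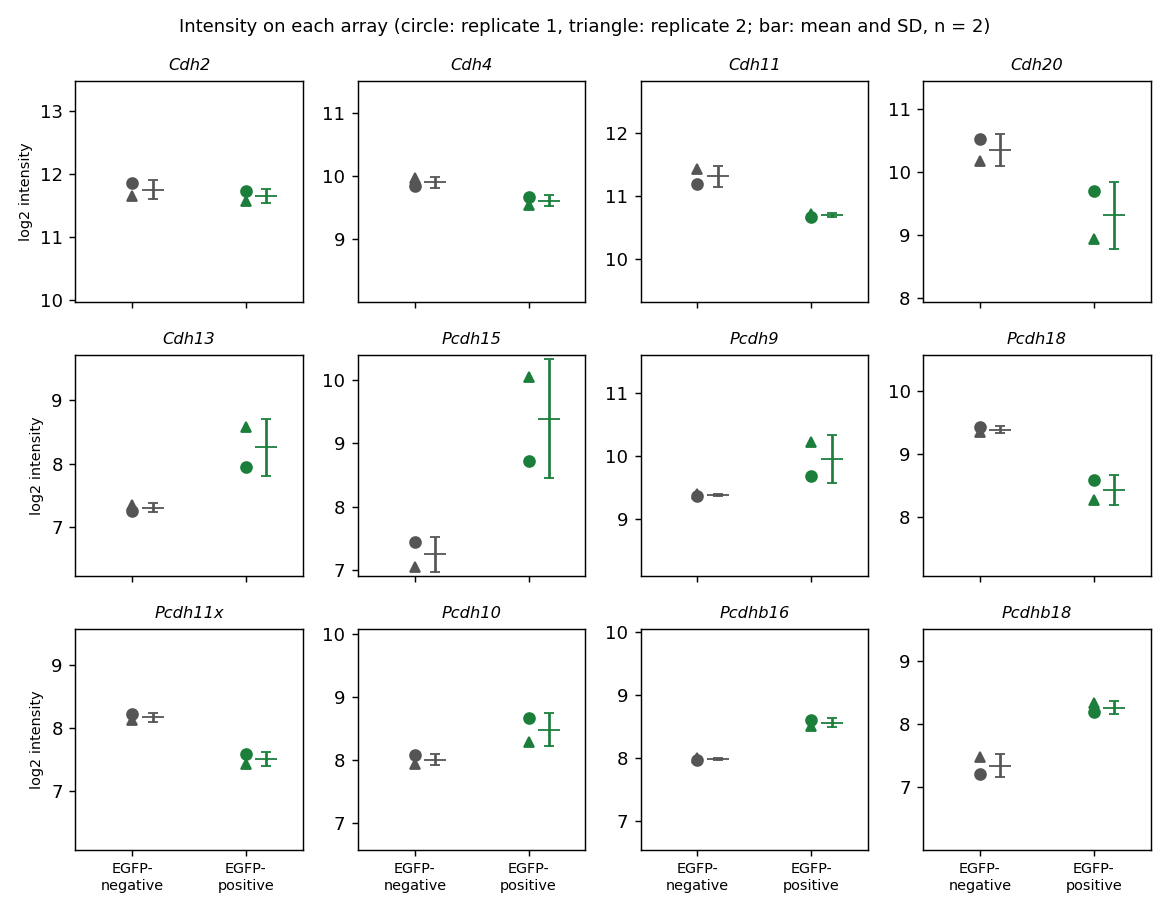
Log2 intensity on each array for 12 family members, with circles for replicate 1, triangles for replicate 2 and bars for the mean and SD (n = 2 per fraction). Every panel spans the same number of log2 units. Pcdh15 shows the widest gap between fractions and between the positive replicates, while the values of Cdh2 overlap.

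The type I cadherins differed little between the fractions. Cdh2, which encodes N-cadherin of the junctions between retinal progenitors and neurons, read 3394.1 and 3068.8 on the positive arrays and 3706.3 and 3222.0 on the negative arrays, so that the fractions overlapped (log2 difference -0.10 ± 0.12, 95% interval -0.41 to 0.21). Cdh4, or R-cadherin, first described in retina, read 820.3 and 749.1 against 915.8 and 1001.0, with both negative arrays higher (-0.29 ± 0.11, adjusted p = 0.252). Cdh3, the P-cadherin gene of pigment epithelium, read 137.3 and 139.0 against 158.7 and 141.5 (-0.12 ± 0.11). The E-cadherin gene Cdh1 and the muscle cadherin gene Cdh15 had overlapping fractions, with intensities from 125.3 to 157.7. Over the 5 genes the median log2 difference was -0.10, and none was called. Cdh4 was the 1 gene with an unadjusted p under 0.05 (background over all features 9.83% lower with EGFP).

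The 13 type II cadherins lay on both sides of 0, with a median log2 difference of -0.02. After Cdh20 and Cdh11, Cdh12 had the next largest difference, with 94.2 and 127.6 on the positive arrays and 75.7 and 82.3 on the negative arrays (0.47 ± 0.17, adjusted p = 0.225), and leaving out positive replicate 1 or 2 gave 0.69 or 0.26. Cdh6, which marks subsets of retinal neurons, read 250.8 and 234.0 against 189.7 and 195.6, with both positive arrays higher (0.33 ± 0.10, adjusted p = 0.176). Cdh8, which acts with Cdh9 in the layering of bipolar cell axons, read 172.1 and 225.1 against 175.0 and 217.0, and its values went with the replicate and not with the fraction (0.01 ± 0.18). Cdh5, the VE-cadherin gene of endothelium, read 128.4 and 128.8 against 135.1 and 118.9 (0.02 ± 0.11). Of the 12 endothelial markers listed, none was called, and their median log2 difference was -0.03. Their sums of 4702 and 2647 against 6496 and 4396 include Kdr, an endothelial receptor that retinal progenitors also express, with 3171.2 and 1107.0 against 4888.5 and 2883.9. The remaining type II genes, namely Cdh7, Cdh9, Cdh10, Cdh18, Cdh19, Cdh22 and Cdh24, had differences from -0.35 for Cdh10 to 0.44 for Cdh9, both of which changed sign when 1 negative array was left out (0.04 for Cdh10 and -0.14 for Cdh9).

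Among the atypical cadherins Cdh13 had the largest difference. It encodes T-cadherin, which is held at the membrane by a lipid anchor and lacks the tail that binds catenins. It read 245.6 and 382.8 on the positive arrays and 152.1 and 162.7 on the negative arrays, with both positive arrays higher and a wider gap between the positive replicates. The log2 difference was 0.96 ± 0.22 (95% interval 0.40 to 1.52, limma adjusted p = 0.112), or 1.95-fold. It was 1.28 without positive replicate 1 (adjusted p = 0.0120) and 0.64 without positive replicate 2. Cdh26 had positive arrays above the negative ones (0.19 ± 0.10). The kidney cadherin gene Cdh16 had a log2 difference of -0.09 ± 0.10 and the intestinal cadherin gene Cdh17 one of -0.02 ± 0.12.

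The remaining delta protocadherins showed smaller differences, mostly toward the positive fraction. Pcdh9, a delta-1 gene of developing neurons, read 820.2 and 1194.7 on the positive arrays and 659.7 and 670.1 on the negative arrays, with both positive arrays higher (log2 difference 0.57 ± 0.19, adjusted p = 0.204, or 0.0300 without positive replicate 1, where the difference was 0.85, against 0.30 without positive replicate 2). Pcdh10, a delta-2 gene whose product binds the WAVE complex, read 404.1 and 313.9 against 269.6 and 244.8 (0.47 ± 0.15, adjusted p = 0.194, or 0.29 without positive replicate 1). Pcdh19, an X-linked gene of epilepsy, read 336.3 and 387.8 against 265.2 and 335.6 (0.28 ± 0.16, from 0.11 without negative replicate 1 to 0.45 without negative replicate 2). Pcdh1 read 114.8 and 113.9 against 97.8 and 98.1 (0.22 ± 0.10). The fractions did not overlap for these genes, but the positive replicate 1 and negative replicate 2 of Pcdh19 were nearly equal. Pcdh17, which acts in axon growth, read 837.5 and 653.2 against 774.1 and 531.2, so that the higher value of each fraction was that of replicate 1 (0.21 ± 0.22). Pcdh7 had a log2 difference of -0.15 ± 0.19 and Pcdh8 of 0.04 ± 0.13, both with overlapping fractions. Outside the delta group, the endothelial protocadherin gene Pcdh12 differed by 0.03 ± 0.10 and Pcdh20 by 0.09 ± 0.16.

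Some members followed the replicate number more than the fraction, and Cdh9 and Cdh10 were named here after their values were seen. Cdh9 read 85.2 and 149.1 on positive arrays 1 and 2 and 55.6 and 123.9 on the negative arrays, and was thus higher in replicate 2 by 0.81 and 1.16 on the log2 scale. Cdh10 read 94.6 and 137.5 against 111.3 and 189.1, with replicate 2 higher by 0.54 and 0.76. In all, 17 members were higher and 14 were lower in replicate 2 of both fractions, against 29.0% and 32.4% of all features. The 11 ganglion cell markers were higher in replicate 2 by a median of 0.84 with EGFP and 1.16 without it, and their part in the values of Cdh8, Cdh9 and Cdh10 was not tested. Of the 5 delta-2 protocadherins, 4 were lower in replicate 2 of both fractions, namely Pcdh8, Pcdh10, Pcdh17 and Pcdh18. For the 22 clustered genes the median of replicate 2 minus replicate 1 was 0.14 with EGFP and 0.02 without it.

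**Figure D4:**
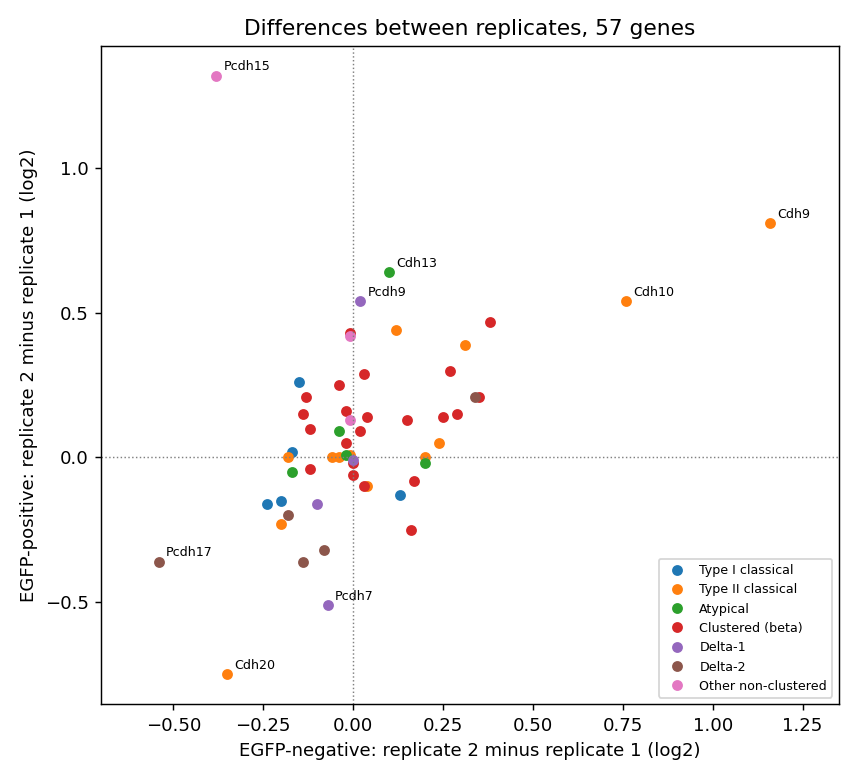
Log2 difference of replicate 2 minus replicate 1 in the EGFP-negative (horizontal) and EGFP-positive (vertical) fraction for the 57 genes, coloured by class. Cdh9 and Cdh10 lie at the upper right, higher in replicate 2 of both fractions, Cdh20 and Pcdh17 at the lower left, and Pcdh15 at the upper left, at 1.32 with EGFP and -0.38 without it.

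The catenins and their p120 relatives, which link classical cadherins to the cytoskeleton, mostly had a higher mean in the negative fraction. Of 9 genes, 7 had a negative difference, with a median of -0.21. None was called by limma. An unadjusted p under 0.05 was reached by 2 genes, both lower with EGFP (background over all features 9.83% lower). Pkp4 read 1023.5 and 547.5 on the positive arrays and 1597.4 and 1136.9 on the negative arrays (-0.85 ± 0.33, adjusted p = 0.256, from -0.40 without positive replicate 2, adjusted p = 0.598, to -1.30 without positive replicate 1, adjusted p = 0.0336). Ctnna2, the neural alpha-catenin gene, read 938.6 and 1180.2 against 595.7 and 890.9, with both positive arrays higher (0.53 ± 0.23, adjusted p = 0.298, from 0.24 without negative replicate 1 to 0.82 without negative replicate 2). Ctnnb1, the beta-catenin gene, was looked at after its values were seen and read 2844.3 and 3068.0 against 3887.9 and 3994.2 (-0.42 ± 0.10, adjusted p = 0.126).

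In the wider cadherin superfamily 1 of 22 measured genes was called by limma (background 0.820% of features higher). This was Cdhr1, a photoreceptor cadherin at the base of the outer segment, which read 1268.9 and 2250.5 on the positive arrays against 133.1 and 138.4 (log2 difference 3.64 ± 0.27, adjusted p = 0.0133). The log2 difference of Cdhr1 ranged from 3.22 without positive replicate 2 to 4.05 without positive replicate 1. The call was not kept without negative replicate 1 or 2, where the log2 difference was 3.61 and 3.67. The median over the list was 0.07. Chosen after their values were seen, Celsr3, a cadherin of axon guidance, read 639.3 and 911.2 against 336.9 and 372.2 (1.11 ± 0.19, adjusted p = 0.0785). Likewise chosen, Clstn1, which encodes a synaptic cadherin relative, read 2160.3 and 1954.1 against 1216.5 and 1155.7 (0.79 ± 0.11, adjusted p = 0.0535).

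The WAVE complex, the actin regulator recruited by delta protocadherins, had 10 measured genes with a median log2 difference of -0.02. None was called by limma. An unadjusted p under 0.05 was reached by 3 genes higher and 1 lower with EGFP (background over all features 9.34% and 9.83%). Cyfip2 read 1440.1 and 1305.2 on the positive arrays and 858.5 and 870.3 on the negative arrays, with both positive arrays higher (0.67 ± 0.11, adjusted p = 0.0685). The adaptor gene Abi3 read 197.2 and 216.3 against 145.8 and 141.5 (0.52 ± 0.11, adjusted p = 0.0908). Among 4 measured proteases that cut cadherins, none was called, and Adam17 read 639.0 and 519.0 against 786.8 and 768.1 (-0.43 ± 0.13, adjusted p = 0.177, or -0.28 without positive replicate 2). Adam10, which sheds N-cadherin, had overlapping fractions and a log2 difference of 0.14 ± 0.12.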

How the data were processed

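Values were taken from the deposited table of 22431 features on 4 arrays, made from 100 ng of total RNA per sample per the labels. The intensity values deposited by the authors are normalised with RMA, and the genome build mm8 is named, per the submitters' processing notes; for the RMA version and any filter, the sources used here give nothing. The linear scale was inferred from a range of 18.9 to 36625.2, with array medians of 218.4 to 222.9. Log2 was taken without a pseudocount. Gene symbols came from the platform annotation, and all 57 members matched the RefSeq table by Entrez number and symbol. Fractions were compared with limma 3.58.1 in R 4.3.3 (lmFit, eBayes without a trend, no replicate term, 5.26 degrees of freedom), two-sided, with Benjamini-Hochberg adjustment over all features and a threshold of 0.05. The median SE was 0.12, and precision is limited by having 2 arrays per fraction. The fit was tested on simulated data with independent noise on every array. Such data lack any deviation shared by same-numbered replicates of both fractions, so that test does not cover it.

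The named genes were the 3 largest differences and the highest mean of each class, and a list of always-named genes. They also included the called or 2 largest members of 6 lists of related genes. Further genes, among them Ctcf, Cdh1, Cdh15, Cdh17 and Pcdhb17, were given outside this rule. Only some of the further genes are marked as chosen after their values were seen. Members, classes and lists were chosen with earlier results of these data known. Alternatives covered scaling, a pseudocount of 16, a 25th percentile filter, the variance trend, the mean over a gene's features, a replicate block and leaving out each array.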

Additional observations from a re-analysis of the deposited data

How the results depend on the processing

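The precision rests on 2 arrays per fraction, and 10 of the 57 members had mean intensities below the lower quartile of all features. The count of clustered protocadherins above 0 ranged from 19 to 21 when 1 array was left out, and their median from 0.34 to 0.48. It was 18 of the 19 beta genes that pass a filter at the 25th percentile, and 21 under each other alternative. Neither the replicate block nor the variance trend can change a log2 difference in this balanced design. The counts of calls depended far more on the setting. Leaving out 1 array gave 0 to 5 members called higher and 0 to 3 lower, 0 to 667 and 0 to 762 features over the whole table, and 11 to 20 members higher at an unadjusted p under 0.05. It gave 0 to 1 calls among the catenins, among the regulators of the clustered loci and among the Usher partners, and 0 to 3 in the wider superfamily. The calls among members came from leaving out positive replicate 1, apart from Pcdh15, which was also called without positive replicate 2. With a robust trend 1 member was called higher, Pcdhb18. With arrays centred on their median 2 genes of the wider superfamily were called.

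Replicate numbers are shared between the fractions, but with 2 pairs they could not be shown to pair the samples. The difference of replicate 2 minus replicate 1 correlated between fractions with r = 0.481 across features, which are not independent replicates. With the replicate block limma called 14 members higher, 11 of them beta protocadherins, and 4 lower, and 1377 and 1500 features over the whole table. It called 3 catenins, 2 regulators of the clustered loci, 2 Usher partners, 2 WAVE genes and 5 genes of the wider superfamily. The class medians did not change with the block, which was fixed in advance by the balanced design.

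Over the arrays left out, the median ranged from -0.05 to 0.17 for the delta-2 and from -0.03 to 0.30 for the other non-clustered protocadherins. The median of the delta-1 class was -0.15 after the filter, which removed Pcdh1. Of the 29 named members, 20 kept their direction under all alternatives run. Leaving out 1 array turned the other 9, with ranges of -0.20 to 0.00 for Cdh2, -0.04 to 0.13 for Cdh23, -0.07 to 0.11 for Cdh5, -0.18 to 0.21 for Cdh8, -0.03 to 0.10 for Pcdh12, -0.07 to 0.48 for Pcdh17, -0.12 to 0.30 for Pcdh20, -0.41 to 0.11 for Pcdh7 and -0.06 to 0.13 for Pcdh8. The cause was not tested.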
